A study of Mus musculus with 12 samples.

Results

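The genes described here encode collagens, laminins and integrins, and they were followed across the striatum of TIF-IA mutant and control mice at 9 and 13 weeks of age. Members were all platform gene symbols that begin with Col, a number, a and a number, with Lam, a letter a, b or c and a number, or with Itga or Itgb. This gave 72 of 12393 symbols, measured by 121 probe sets, and where a symbol had several probe sets, the one whose mean over the 12 arrays was highest stood for it. Of the 72, 36 were collagen chains, 10 laminin chains and 22 integrin subunits. The other 4 share the letters but are not subunits of these proteins (Itgb1bp1, Itgb1bp2, Itgb3bp and Itgbl1), and they are described apart.

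The study compared striatal gene expression between genotypes at the 2 ages, with 1 Affymetrix array per mouse and 3 mice in each of the 4 groups. All mice were C57Bl/6. Mutants were labelled TIF-IAD1RCre mutant, which names the gene TIF-IA (Rrn3), a factor that RNA polymerase I needs to transcribe ribosomal RNA genes, and a Cre recombinase driven by the D1 dopamine receptor promoter. Controls were labelled only as control, so the alleles they carry are not stated. Such a Cre is meant to act in neurons that express the D1 receptor, and which cells lost the gene was not measured here. The labels name medium spiny neurons as the cell type, yet 8 of 8 measured astrocyte markers, 10 of 10 microglia markers and 5 of 5 oligodendrocyte markers passed the filter on low values, so the arrays hold RNA of several cell types. In such bulk samples, more cells of a type and more RNA per cell cannot be told apart.

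Values are GCRMA signals on a log2 scale, from 1.09 to 15.48 over all probe sets, and depth has no counterpart here: the number of arrays limits the precision. Rrn3 was lower in mutants at 9 weeks by 1.13 ± 0.18 log2 (limma, SE, n = 3, adjusted p = 0.00748), while at 13 weeks its difference of -0.35 did not pass (adjusted p = 0.128). Among the arrays, 2 stood apart from their groups. Control mouse 3 at 13 weeks had the lowest array weight, 0.059. Mutant mouse 3 at 9 weeks had a weight of 0.264, and its mean of thalamic and pallidal markers was 5.13, against 3.42 and 3.44 in the other mutants of that age. On that list control mouse 1 at 13 weeks was also high, at 5.37. Levels of Xist and Eif2s3y gave 1 female among the controls at either age, 1 among the younger mutants and 3 of 3 among the mutants at 13 weeks. Control mouse 3 at 13 weeks was the 1 female control of that age.

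Collagens are triple helices of 3 chains. Fibril-forming types such as I, III and V make fibres, type IV makes the sheet of the basement membrane, and type VI makes beaded filaments beside it. Laminins are cross-shaped trimers of an alpha, a beta and a gamma chain that assemble on cell surfaces and start the basement membrane, which in the brain lies around blood vessels and under the meninges. Integrins are paired alpha and beta receptors that bind these proteins from the cell side. The beta2 integrins are restricted to leukocytes, microglia among them, the alpha6 subunit binds laminins, and the alphav subunit binds the RGD peptide of vitronectin and fibronectin.

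The upstream sequences of 4 members that changed at 13 weeks are shown. They are printed because Itgam and Itgax lie next to each other and both rose, Col4a5 had the largest rise among the tested collagens, and Col6a1 was the tested collagen that fell. RefSeq windows of build GRCm38.p6 were found for 50 of the 72 members and 19 of the 24 tested. The 250 bases before each annotated start were searched on both strands for GAGGAA, the letters at the core of many PU.1 sites, and for TGANTCA, the letters of an AP-1 site. Matches are in capitals, and a GAGGAA match on the opposite strand reads TTCCTC. The motifs do not overlap each other in these windows.
Itgam, chr7:128062390-128062639, plus strand: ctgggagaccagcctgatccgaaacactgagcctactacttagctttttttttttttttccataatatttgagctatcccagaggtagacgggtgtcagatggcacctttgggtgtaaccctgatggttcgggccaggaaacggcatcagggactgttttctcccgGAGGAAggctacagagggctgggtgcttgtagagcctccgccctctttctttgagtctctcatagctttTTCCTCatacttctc
Itgax, chr7:128129300-128129549, plus strand: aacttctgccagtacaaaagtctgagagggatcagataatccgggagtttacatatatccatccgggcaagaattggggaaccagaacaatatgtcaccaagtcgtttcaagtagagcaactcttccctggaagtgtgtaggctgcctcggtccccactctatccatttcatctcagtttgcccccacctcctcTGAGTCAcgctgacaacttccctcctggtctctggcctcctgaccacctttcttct
Col4a5, chrX:141475169-141475418, plus strand: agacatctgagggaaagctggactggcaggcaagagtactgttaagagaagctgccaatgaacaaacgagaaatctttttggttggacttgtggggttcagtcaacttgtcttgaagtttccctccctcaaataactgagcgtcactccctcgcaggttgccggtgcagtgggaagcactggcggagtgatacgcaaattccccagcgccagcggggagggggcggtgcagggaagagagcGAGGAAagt
Col6a1, chr10:76726045-76726294, minus strand: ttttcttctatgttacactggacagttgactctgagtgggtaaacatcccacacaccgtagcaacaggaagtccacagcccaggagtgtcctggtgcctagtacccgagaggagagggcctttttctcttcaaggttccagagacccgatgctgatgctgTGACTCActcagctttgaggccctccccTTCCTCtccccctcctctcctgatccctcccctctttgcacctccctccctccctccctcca

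Itgam has 2 GAGGAA matches, which begin 84 and 15 bases before the start, and Itgax has none. TGANTCA was found once in Itgax, 56 bases before the start, and once in Col6a1, 90 bases before it, so the same letters stand before a gene that rose and a gene that fell. Of all 32851 windows, 23.3% hold GAGGAA and 6.7% hold TGANTCA. Among the 9 members that rose at 13 weeks and have a window, 4 hold GAGGAA and 1 holds TGANTCA, and among the 19 tested members with a window these counts are 11 and 2. A match is a description of letters and says nothing about binding in these mice.

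Most members were near the bottom of the scale. The filter asked that a gene exceed the 40th percentile of its own array (a log2 value from 3.51 to 3.81) on 3 or more arrays, and 24 of 72 members (33.3%) met this against 66.6% of all symbols. By family, 8 of 36 collagens, 4 of 10 laminins, 10 of 22 integrins and 2 of the 4 others were tested. Of the 24, 3, Itgax, Col4a5 and Col1a2, passed the filter through the mutants at 13 weeks alone, and such genes had to differ there. Their adjusted p values against those mutants are therefore not separate evidence of a rise. Col5a2 was above the percentile in 3 mutants at 13 weeks and in 1 at 9 weeks. Lamb3 was above it in 3 controls at 13 weeks, 2 controls at 9 weeks and 0 mutants. Without the mutants at 13 weeks for Col5a2, or the controls at 13 weeks for Lamb3, neither would have been tested. Counts over the 24 therefore describe the tested members and support nothing beyond them.

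The other 48 members were not tested, and 42 of them were above the percentile in 0 of 12 arrays. These were 26 collagens, namely the chains of types II and XI, Col1a1, Col3a1, Col5a1, Col5a3, Col6a3, Col7a1, Col8a1, Col10a1, Col12a1, Col13a1, Col14a1, Col15a1, Col17a1, Col18a1, Col19a1, Col22a1, Col25a1, Col26a1, Col4a3, Col4a4, Col4a6, Col9a1 and Col9a2. The same held for the laminin genes Lama1, Lama4, Lama5 and Lamc3, and for the integrin genes Itga2, Itga2b, Itga4, Itga8, Itgae, Itgal, Itgb2l, Itgb3, Itgb6 and Itgb7. Among the genes that are not subunits, Itgb1bp2 and Itgbl1 were never above it. The remaining 6, Col6a2, Col20a1, Lama3, Lamc1, Itga7 and Itga9, were above it in 1 or 2 arrays.

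At 9 weeks, 1 of 24 tested members passed limma's test at an adjusted p under 0.05 (unadjusted p under 0.05 in 4), where 5% of all 8256 genes tested passed (2.02% higher and 2.98% lower) and 21.4% had an unadjusted p under 0.05. This was Col6a1, which encodes an obligatory chain of the beaded collagen VI. On the log2 scale, controls read 7.85, 7.40 and 7.53, and mutants 6.51, 6.06 and 7.27. Each mutant lay below each control, although mutant mouse 3 came close to them. Col6a1 fell by 0.98 ± 0.26 log2 (SE, n = 3 per group), or 1.97-fold, with an adjusted p of 0.0499. This call was lost without any 1 of 10 arrays (highest adjusted p = 0.172). It was kept without mutant mouse 3 at 9 weeks, at -1.31 and adjusted p = 0.0123, and without control mouse 3 at 13 weeks, at adjusted p = 0.0249.

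Other members leaned but did not pass at 9 weeks. Lamb3, a laminin beta chain of epithelia, differed by -0.71 ± 0.22 (adjusted p = 0.0779) and passed without control mouse 3 at 13 weeks (adjusted p = 0.036). Col4a1, the main chain of vascular collagen IV, differed by -0.65 ± 0.22 (adjusted p = 0.121). The groups of Col4a1, Col4a2, Col6a1 and Itgav did not overlap, with mutants lower in each. Such separation downward was seen in 20.6% of all genes, and upward in 15%, where Itgb3bp was the 1 member. The median difference of the tested members was 0.02, beside -0.02 over all genes. Integrin subunits differed by between -0.48 and 0.39 at this age, and 0 of 10 passed limma's test or had an unadjusted p under 0.05.

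**Figure D1:**
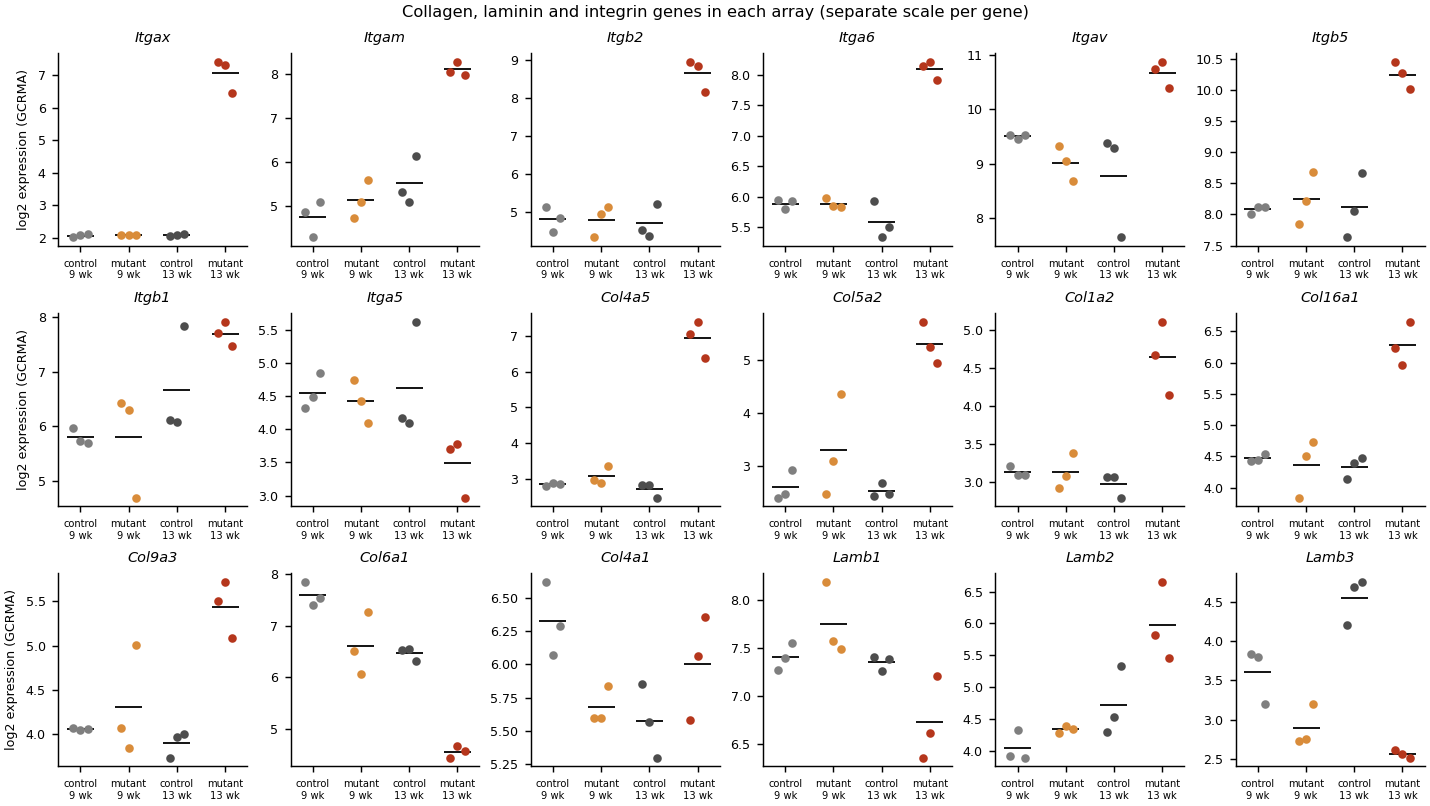
Log2 GCRMA expression of 18 members in each of the 12 arrays, with a separate vertical scale for each gene. Points are mice and bars are group means. Itgax sits between 6.44 and 7.41 in the mutants at 13 weeks and at or under 2.11 in the other 9 mice, while Col6a1 is lowest in the mutants at 13 weeks, between 4.44 and 4.66.

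At 13 weeks, 18 of 24 tested members passed, 13 higher and 5 lower in mutants, or 75.0%, in a comparison in which 45.3% of all genes passed (23.4% higher and 21.9% lower). Integrins moved mostly up, with 6 higher and 1 lower of 10. Collagens did so too, with 5 higher and 1 lower of 8. Among these rises, Col4a5, Col1a2 and Col5a2 were tested only because of the mutants at 13 weeks. Laminins were divided, with 1 higher and 2 lower of 4. The median difference was 2.01 log2 in integrins, 1.60 in collagens and -0.30 in laminins, beside 0.00 over all genes. The groups did not overlap in 20 of the 24, higher in 13 and lower in 7, against 27.8% and 26.8% of all genes. All these counts and medians include Itgax, Col4a5 and Col1a2, which had to differ by the filter. They also include Col5a2 and Lamb3, which would not have been tested without their higher group at 13 weeks.

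Among leukocyte integrins, 3 of 3 tested members rose, and these are the chains of the beta2 receptors CR3 and CR4 of microglia and other myeloid cells. Itgb2, the shared beta2 chain, read 4.54, 4.38 and 5.23 in controls and 8.95, 8.84 and 8.17 in mutants. Its rise was 3.94 ± 0.30 log2, or 15.3-fold (adjusted p = 1.02e-06). Itgam, the alphaM chain known as CD11b, read 5.32, 5.09 and 6.14 in controls and 8.05, 8.27 and 7.97 in mutants. It rose by 2.58 ± 0.30, or 5.98-fold (adjusted p = 3.75e-05).

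Itgax, the alphaX chain known as CD11c, was the member with the largest difference. It read 2.05, 2.08 and 2.11 in controls and 7.41, 7.32 and 6.44 in mutants. The difference was 4.98 ± 0.22 log2, or 31.5-fold (adjusted p = 8.35e-09). All controls, and all mice at 9 weeks, lay well below the percentile of the filter, where the size of a fold depends on the background correction. The alphaL, alphaE, alpha4 and beta7 chains, which are also leukocyte integrins, were above the percentile in 0 arrays.

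Of the RGD-binding integrins, Itgav and Itgb5, which pair as the vitronectin receptor alphavbeta5, both rose. Itgb5 read 7.63, 8.05 and 8.66 in controls and 10.45, 10.27 and 10.01 in mutants. It rose by 2.13 ± 0.27, or 4.38-fold (adjusted p = 5.7e-05). Itgav read 9.39, 9.29 and 7.65 in controls and 10.74, 10.87 and 10.39 in mutants, and rose by 1.89 ± 0.38, or 3.71-fold (adjusted p = 0.00162). Control mouse 3 was more than 1 log2 below the other controls, and without it the rise of Itgav was smaller, 1.33, and still passed.

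Itga5, the alpha chain of the main fibronectin receptor, went the other way. It read 4.17, 4.09 and 5.62 in controls and 3.70, 3.78 and 2.97 in mutants, a fall of 1.14 ± 0.38 (adjusted p = 0.0267). Leaving out control mouse 3, the highest, gave -0.65, which missed the threshold (adjusted p = 0.0645), and leaving out mutant mouse 3 gave -0.89 (adjusted p = 0.103).

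Itga6, the laminin-binding alpha6 chain, read 5.93, 5.33 and 5.50 in controls and 8.15, 8.21 and 7.91 in mutants. It rose by 2.50 ± 0.17, or 5.67-fold (adjusted p = 3.55e-07), and all mutants lay far above all controls. Its usual partner in epithelia, Itgb4, differed by -0.48 ± 0.34 (adjusted p = 0.265), with control mouse 3 high at 5.56 against 4.23 and 4.07 in the others. Itga3, another laminin receptor chain, differed by -0.06 ± 0.14 (adjusted p = 0.739). Itga7, the laminin receptor of muscle, was not tested, and its values in mutants were 3.29, 4.49 and 3.15 against 2.42, 2.22 and 2.59 in controls.

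Itgb1, the beta chain that most of these receptors share, gave different answers by probe set and by array. The probe set with the higher mean read 6.11, 6.07 and 7.83 in controls and 7.70, 7.91 and 7.47 in mutants. Its difference of 1.02 ± 0.49 did not pass (adjusted p = 0.111), and the groups overlapped through control mouse 3. Without that mouse the difference was 1.60 (adjusted p = 0.00783). A second probe set of Itgb1 read 4.49, 4.48 and 3.68 in controls and 6.79, 6.70 and 6.12 in mutants. It rose by 2.32 ± 0.29 (adjusted p = 6.98e-05 in a limma fit of 13093 probe sets on their own), and there control mouse 3 was the lowest and not the highest. Itgb1 had 6 probe sets in all, and the rest were above the percentile in at most 1 array. Those differed by between -0.18 and 0.29.

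**Figure D2:**
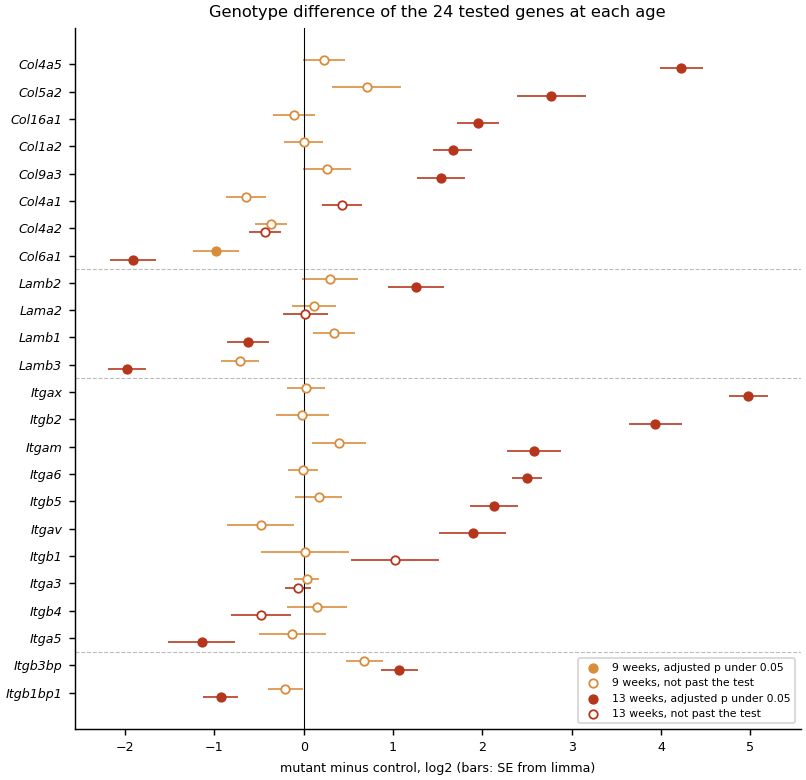
Mutant minus control on the log2 scale with the SE from limma at 9 weeks (orange) and 13 weeks (red) for the 24 tested members, grouped by dashed lines into collagens, laminins, integrins and genes that are not subunits. Filled points passed at an adjusted p under 0.05: 1 gene at 9 weeks and 18 at 13 weeks.

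Collagens of several classes rose at 13 weeks. Col4a5, the alpha5 chain of collagen IV, whose gene lies on the X chromosome, read 2.83, 2.84 and 2.48 in controls and 7.06, 7.39 and 6.38 in mutants. It rose by 4.23 ± 0.24, or 18.7-fold (adjusted p = 7.81e-08), with 0 control arrays above the percentile. The 1 female control, which was also the array with the lowest weight, read 2.48, the lowest of the 3 and below the percentile. A value from 1 array cannot show the part of sex. All mutants were female. Col4a5 also passed with a term for sex, but with 0 males among these mutants that term rests on the other groups. Averaged over both of its probe sets, the rise of Col4a5 was 2.41.

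The other chains of collagen IV did not follow Col4a5. Col4a1 read 5.85, 5.57 and 5.30 in controls and 5.58, 6.06 and 6.36 in mutants, and these ranges overlapped (0.43 ± 0.22, adjusted p = 0.141), although Col4a1 passed without mutant mouse 1, the lowest mutant (0.64, adjusted p = 0.0458). Col4a2 read 5.27, 5.19 and 5.60 in controls and 5.06, 4.87 and 4.83 in mutants. Its difference of -0.43 ± 0.18 did not pass (adjusted p = 0.0653), though mutants lay below controls, and Col4a2 passed after quantile normalization (-0.64), after median centring (-0.60) and without control mouse 1 at 9 weeks (adjusted p = 0.045). Col4a3, Col4a4 and Col4a6 had mutant means of 2.01, 2.60 and 3.35.

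Both tested fibrillar collagens rose, from control levels below the percentile. Col5a2, a chain of collagen V that sits in the core of fibrils, read 2.44, 2.69 and 2.48 in controls and 5.72, 5.25 and 4.95 in mutants (2.77 ± 0.39, 6.82-fold, adjusted p = 0.000129). Col1a2, a chain of collagen I, read 3.06, 3.06 and 2.79 in controls and 4.67, 5.10 and 4.14 in mutants (1.67 ± 0.22, 3.18-fold, adjusted p = 9.45e-05). Each rise rests on 1 of 2 probe sets. The second probe set of Col5a2 differed by 0.18 and that of Col1a2 by -0.02, both above the percentile in 0 arrays. Col1a1, its partner chain, stayed at means of 2.58 in controls and 2.54 in mutants.

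The FACIT collagens, which attach to the surface of fibrils, gave 2 tested members, and both rose. Col16a1 read 4.13, 4.39 and 4.48 in controls and 6.24, 5.96 and 6.65 in mutants (1.95 ± 0.24, 3.86-fold, adjusted p = 4.7e-05). Col9a3 read 3.73, 3.96 and 4.0 in controls and 5.51, 5.72 and 5.08 in mutants (1.54 ± 0.27, 2.91-fold, adjusted p = 0.000648). Col20a1, another FACIT gene, was not tested because its representative probe set was above the percentile in 1 array. Another probe set of Col20a1 read 2.47, 2.51 and 2.56 in controls and 4.74, 4.74 and 3.94 in mutants. It differed by 1.96 ± 0.20 (adjusted p = 1.26e-05 in the fit of single probe sets). However, it was above the percentile only in the 3 mutants at 13 weeks. It entered that fit through them alone and had to differ there, so its adjusted p is not separate evidence of a rise. The representative probe set of Col20a1 differed by -0.007 and the remaining probe set by -0.03.

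Col6a1 was the collagen that fell. It read 6.53, 6.55 and 6.32 in controls and 4.44, 4.66 and 4.56 in mutants, so that the groups lay well apart. The fall was 1.91 ± 0.26 log2, or 3.77-fold (adjusted p = 9.74e-05). The other chains of collagen VI were low throughout, with Col6a2 above the percentile in 1 array and Col6a3 in none.

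Laminin beta chains moved in opposite directions at 13 weeks. Lamb2, the beta2 chain of vessel and synaptic laminins, read 4.30, 4.53 and 5.33 in controls and 5.82, 6.65 and 5.46 in mutants. It rose by 1.26 ± 0.31, or 2.39-fold (adjusted p = 0.00602), and the lowest mutant was just above the highest control. Lamb3 read 4.20, 4.69 and 4.75 in controls and 2.62, 2.57 and 2.52 in mutants. It fell by 1.98 ± 0.22, or 3.94-fold (adjusted p = 2.01e-05), to below the percentile in each mutant, a range in which the GCRMA background step sets much of the size.

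Lamb1, the widely expressed beta1 chain, read 7.41, 7.26 and 7.39 in controls and 6.36, 6.62 and 7.21 in mutants. Its fall of 0.62 ± 0.23 passed narrowly (adjusted p = 0.0468) and did not pass in 9 of 12 fits that left out 1 array (highest adjusted p = 0.187). The loss came without any control at 9 or 13 weeks, mutant mouse 2 at 9 weeks, or mutant mouse 1 or 2 at 13 weeks, and the call was also lost with the replicate number as a block (adjusted p = 0.0593). Of the other Lamb1 probe sets, 1 differed by -0.78 (adjusted p = 0.0589) and the other fell by 1.76 ± 0.24 (adjusted p = 0.000125 in the fit of single probe sets), so that 3 of 3 lay in the same direction with unequal sizes. Lama2, the alpha2 chain of muscle and glial laminin, differed by 0.02 ± 0.25 (adjusted p = 0.957). Lamc1, the common gamma chain, was above the percentile in control mouse 3 alone, at 5.11, against 3.03 and 3.16 in the other controls.

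The 2 tested genes that share a symbol with integrins but encode other proteins also passed at 13 weeks. Itgb1bp1, the ICAP1 protein that binds the tail of the beta1 chain, fell by 0.93 ± 0.20 (adjusted p = 0.00228), from 10.21, 10.74 and 10.46 in controls to 9.51, 9.50 and 9.61 in mutants. Itgb3bp, a centromere protein, rose by 1.07 ± 0.21 (adjusted p = 0.00134). When all probe sets of Itgb3bp were averaged, the difference shrank to 0.29 and no longer passed (adjusted p = 0.0667). At 9 weeks it differed by 0.68 ± 0.21 (adjusted p = 0.0825) and passed when control mouse 3 at 13 weeks (adjusted p = 0.0432) or mutant mouse 2 of that age (adjusted p = 0.0463) was left out.

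The difference between the genotype effects at the 2 ages was tested as an interaction, and 13 of 24 members passed, 12 with a more positive and 1 with a more negative difference at 13 weeks, against 18.4% of all genes (12.1% and 6.38%). The interaction was 4.95 ± 0.30 log2 for Itgax (adjusted p = 4.95e-07), 4.0 ± 0.34 for Col4a5 (adjusted p = 6.48e-06) and 3.95 ± 0.42 for Itgb2 (adjusted p = 4.59e-05). It was 2.51 ± 0.24 for Itga6 (adjusted p = 1.69e-05), 2.37 ± 0.53 for Itgav (adjusted p = 0.00938) and 2.19 ± 0.43 for Itgam (adjusted p = 0.00426). These integrins and Col4a5 passed in each of the 12 fits that left out 1 array. For Itgax and Col4a5 this is no separate support, since the filter let them in through the mutants at 13 weeks alone.

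Col6a1 behaved differently from these genes in the same test. Its interaction was -0.93 ± 0.36 and did not pass (adjusted p = 0.0964), so a larger fall at 13 than at 9 weeks was not shown. Lamb3 passed with -1.26 ± 0.30 (adjusted p = 0.0132). Col4a1 passed with 1.07 ± 0.32 (adjusted p = 0.035), although neither age passed alone, and it lost the call without any 1 of 7 arrays, which were control mice 1 and 3 and mutant mice 1 and 2 at 9 weeks, and control mouse 2 and mutant mice 2 and 3 at 13 weeks (highest adjusted p = 0.0914).

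From 9 to 13 weeks in mutants, 16 of 24 members passed, 13 higher and 3 lower, against 32.7% of all genes (16.1% higher and 16.6% lower). This comparison shares its mutant arrays with the one at 13 weeks. For Itgax, Col4a5 and Col1a2, which the filter let in through those arrays alone, a rise here was fixed as well. The 5 largest rises were those of Itgax (4.96 ± 0.22), Col4a5 (3.87 ± 0.24), Itgb2 (3.85 ± 0.30), Itgam (2.96 ± 0.30) and Itga6 (2.21 ± 0.17), each with an adjusted p of at most 1.57e-05. Itgb1 also rose with age in mutants, by 1.89 ± 0.49 (adjusted p = 0.0116), though with a term for sex, which differs between these groups, it came to 1.33, short of the threshold (adjusted p = 0.0588). The falls were those of Col6a1 (-2.06 ± 0.26, adjusted p = 7.93e-05), Lamb1 (-1.02 ± 0.23, adjusted p = 0.00554) and Itgb1bp1 (-0.79 ± 0.20, adjusted p = 0.00882).

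From 9 to 13 weeks in controls, 0 of 24 members passed limma's test, with 4 at an unadjusted p under 0.05. Of all genes, 0.145% passed and 17.3% had an unadjusted p under 0.05. The largest differences with age in controls were those of Col6a1, lower by 1.13 ± 0.26 (adjusted p = 0.104), and Lamb3, higher by 0.94 ± 0.22 (adjusted p = 0.105). The controls of the 2 ages did not overlap for either gene, nor for 6 further members (in all 3 higher and 5 lower at 13 weeks, against 6.67% and 16.7% of all genes). The fit pools the spread of all groups, and when mutant mouse 3 at 9 weeks was left out of it, the same Col6a1 difference of -1.13 passed (adjusted p = 0.035).

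Pairs of members that are next to each other on a chromosome were compared, since several collagen and integrin genes arose by duplication. In the RefSeq table of GRCm38.p6, 7 pairs of members were direct neighbours among protein-coding genes. In 1 of them, Itgam and Itgax on chromosome 7, both members rose at 13 weeks. In 3 pairs 1 member passed and the other was never or hardly above the percentile: Col4a5 beside Col4a6 on the X chromosome, Col5a2 beside Col3a1 on chromosome 1, and Col6a1 beside Col6a2 on chromosome 10. Col3a1 had means of 2.65 in controls and 2.81 in mutants, and Col4a6 of 3.10 and 3.35.

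Col4a1 and Col4a2 on chromosome 8 were the other pair with both members tested. They are read in opposite directions from 1 shared region, and their annotated starts are 22 bases apart counting both, which is why this stretch is shown. The capitals mark the start of Col4a2 (first base) and of Col4a1 (last base), on the plus strand of chr8:11312805-11312826.
Col4a2 to Col4a1 starts: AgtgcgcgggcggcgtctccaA
Each had lower values in the mutants than in the controls at 9 weeks without passing, and at 13 weeks Col4a1 differed by 0.43 and Col4a2 by -0.43. The last 2 pairs, Col4a3 with Col4a4 and Col9a1 with Col19a1, both on chromosome 1, had 0 members tested.

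**Figure D3:**
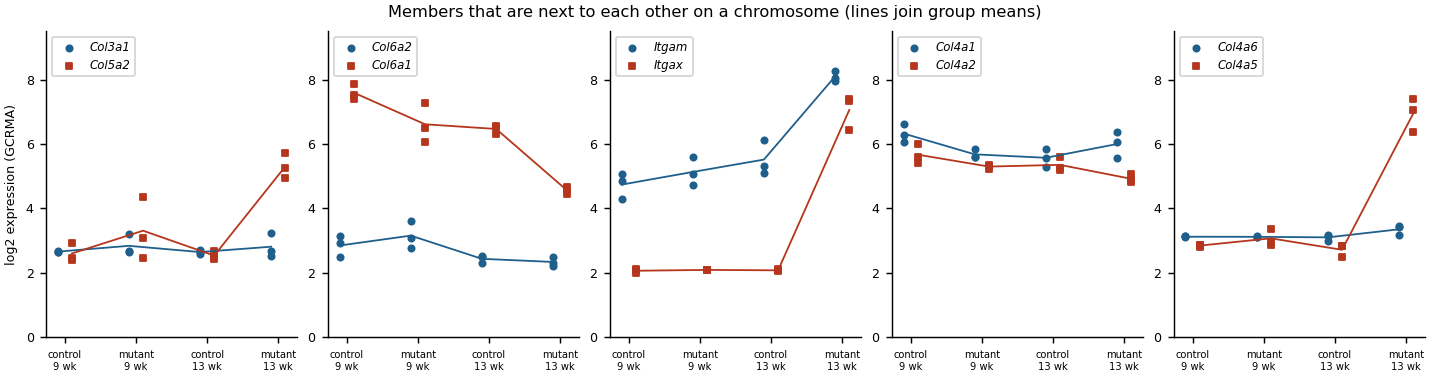
Log2 GCRMA expression of the 5 pairs of neighbouring members with at least 1 tested gene, in each array, with lines that join group means. Itgam and Itgax both rise in the mutants at 13 weeks, whereas Col5a2, Col6a1 and Col4a5 change while their neighbours Col3a1, Col6a2 and Col4a6 stay between 2 and 4.

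Of the 18 members that passed at 13 weeks, 5 had further probe sets above the percentile in at least 3 arrays, and all 8 of these probe sets differed in the same direction as the representative one. Itgb5 had 3 such probe sets with rises between 2.02 and 2.59. Itga6 had 1 with 2.72 and Itgav 1 with 1.52. For Col9a3 another probe set gave 0.85, short of the threshold (adjusted p = 0.0955). Probe sets above the percentile in 0 arrays are not in this count. Such probe sets differed by 0.60 for Col4a5, 0.18 for Col5a2, 0.08 for Itgav and -0.02 for Itga5. Those of Col1a2 (-0.02), Col9a3 (-0.05) and Itgb3bp (-0.17 and -0.02) had the opposite sign to the representative one.

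Genes that work with these proteins were taken from 6 lists. At 13 weeks 45.3% of all genes passed (23.4% higher and 21.9% lower). At 9 weeks 5% of all genes passed, and 21.4% had an unadjusted p under 0.05. Collagen synthesis and crosslinking enzymes rose in 11 of 15 tested genes at 13 weeks and fell in 0, with a median of 1.48. The 4 with the smallest p were Loxl1 (2.58 ± 0.15, adjusted p = 8.16e-08) and Loxl3 (1.65 ± 0.16), which crosslink collagen and elastin, Plod2 (1.90 ± 0.19), which hydroxylates collagen lysines, and Serpinh1 (1.75 ± 0.27), the collagen chaperone HSP47. At 9 weeks 0 of 15 passed limma's test, with 1 at an unadjusted p under 0.05.

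Basement membrane partners rose in 5 and fell in 1 of 9 tested genes at 13 weeks, with a median of 1.07. Vwa1 (2.95 ± 0.31), Sparc (2.02 ± 0.24), Npnt (1.69 ± 0.31) and Fbln5 (1.49 ± 0.25) rose, and the 1 that fell was Hspg2, which encodes perlecan (-1.35, named after its value was seen). At 9 weeks Agrn, which encodes agrin, fell by 0.63 ± 0.13 (adjusted p = 0.0241), and it was the 1 gene of 9 that passed.

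Integrin ligands outside the 3 families rose in 9 and fell in 3 of 15 at 13 weeks. Ccn1 (3.83 ± 0.23), Icam1 (3.73 ± 0.35), a ligand of beta2 integrins, and Tgfb1 (2.80 ± 0.21), whose latent form binds alphav integrins, rose. Icam5, a neuronal ligand of the alphaL beta2 receptor, fell by 4.17 ± 0.38 (adjusted p = 5.11e-06) and had already fallen at 9 weeks by 1.49 ± 0.38 (adjusted p = 0.048).

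Adaptors that link integrins to actin rose in 13 and fell in 2 of 24 at 13 weeks. Parvg (3.11 ± 0.12), Fermt3 (3.07 ± 0.37), the kindlin of blood cells, and Skap2 (2.03 ± 0.29) rose, and Ptk2b, the kinase PYK2, fell by 2.24 ± 0.26. At 9 weeks Flna rose (1.21 ± 0.26, adjusted p = 0.0277) and Actn1 fell (-0.89 ± 0.20, adjusted p = 0.0292). Matrix proteases and inhibitors rose in 8 and fell in 3 of 14, with the smallest p for the rises of Timp1 (5.90 ± 0.17), Adamts1 (2.48 ± 0.16), Mmp2 (2.09 ± 0.14) and Timp3 (1.43 ± 0.20), and 0 of 14 passed limma's test at 9 weeks (3 at an unadjusted p under 0.05). Other matrix receptors rose in 6 of 11, and the 4 with the smallest p were Cd44 (6.40 ± 0.18), Lair1 (2.39), Sdc3 (1.49) and Sdc4 (3.52). Sdc3, a neuronal syndecan, had been lower at 9 weeks by 0.93 ± 0.20 (adjusted p = 0.0277), and its interaction passed (adjusted p = 9.61e-05).

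Markers of several cell types moved with the members at 13 weeks, where 23.4% of all genes passed higher and 21.9% lower. The part of these markers in the results was not tested. Microglia markers passed upward in 7 of 10 genes, and the mean level of the list was between 9.09 and 9.55 in mutants and between 7.03 and 7.42 in controls. Mural cell markers passed upward in 5 of 6 (list mean 5.59 to 5.91 against 4.85 to 4.96), endothelial markers in 4 of 8 (4.86 to 5.13 against 3.99 to 4.40), and fibroblast and meningeal markers in 6 of 7 (5.63 to 5.85 against 3.96 to 4.33). These counts are over tested genes, and some defining markers were above the percentile in 0 arrays: Cdh5, Kdr and Tie1 of 12 endothelial genes measured, Abcc9, Anpep and Des of 10 mural genes, and Lum, Slc6a13, Slc22a6, Aldh1a2 and Osr1 of 13 fibroblast and meningeal genes. Astrocyte markers passed upward in 7 of 8, oligodendrocyte precursor markers in 3 of 4 and markers of mature oligodendrocytes in 1 of 5 (median difference 0.07), and markers of medium spiny neurons passed downward in 6 of 7 (9.25 to 9.98 against 11.42 to 11.97).

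Markers of blood leukocytes stayed at the bottom of the scale. Of the monocyte and neutrophil markers 10 of 10 were above the percentile in 0 arrays, S100a8, S100a9 and Ccr2 among them, and the list mean was between 2.33 and 2.38 in mutants and between 2.24 and 2.31 in controls at 13 weeks. Of the lymphocyte markers 11 of 12 were never above it, with list means between 2.35 and 2.36 in mutants and between 2.37 and 2.45 in controls.

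**Figure D4:**
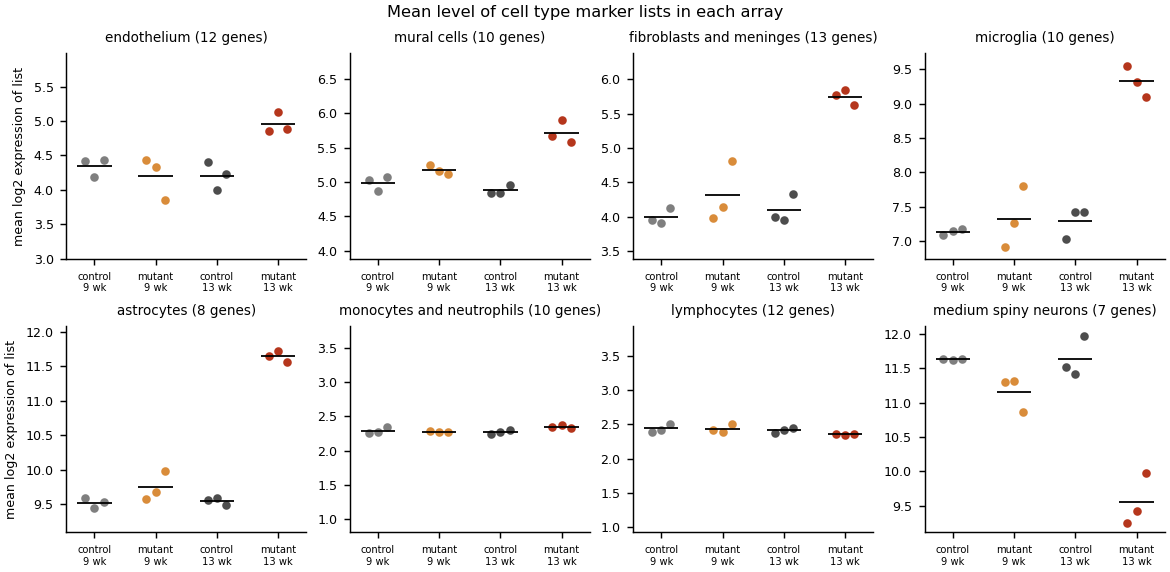
Mean log2 expression of 8 marker lists in each array, with bars at group means and separate vertical scales. The microglia list lies between 9.09 and 9.55 in the mutants at 13 weeks, while the lists of monocytes and neutrophils and of lymphocytes stay below 2.6 in all groups.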

How the data were processed

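Total RNA of the striatum was hybridised to Affymetrix arrays, and the deposited log2 values were made by the authors with GCRMA, per the submitters' processing notes (version not given in the sources used here). The 12 arrays were used as deposited. Of 22690 probe sets, 64 were controls. The platform annotation in GEO gave a single gene to 20380, more than 1 to 691 and no gene to 1555, and only the first kind was kept. Genes above their array's 40th percentile in at least 3 arrays were tested, 8256 of 12393. All arrays were fitted with limma 3.58.1 in R 4.3.3 (lmFit, eBayes), with 1 coefficient per group, 8 residual degrees of freedom, two-sided p-values and Benjamini-Hochberg adjustment over all genes tested. Genes passed at an adjusted p under 0.05. Folds are 2 to the power of the log2 difference.

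Named were the 12 largest rises and 8 largest falls that passed at 13 weeks, all that passed at 9 weeks, the 8 largest interactions, the 5 largest changes with age, and up to 4 genes of each related list with the smallest p at 13 weeks and those that passed at 9 weeks. Members, lists and rules were chosen with earlier results of these data known. The alternatives were other normalizations, filters, probe set rules, spreads, array weights, a term for sex, the replicate number as a block, other thresholds and each array left out. Fits of single probe sets and without 2 arrays were chosen after seeing the data. The fit was tested on simulated data. The labels call replicates biological. Same-numbered mice did not deviate together (correlations of -0.07 to 0.18), so numbers were not taken as pairs.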

Additional observations from a re-analysis of the deposited data

Results flagged for a closer look

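For 13 members the genotype difference at 13 weeks differed from that at 9 weeks by the interaction test, and these were singled out for that reason. Of these, Itgax, Col4a5 and Col1a2 passed the filter through the mutants at 13 weeks alone. On the log2 scale the change was 4.95 for Itgax, 4.0 for Col4a5, 3.95 for Itgb2, 2.51 for Itga6, 2.37 for Itgav, 2.19 for Itgam, 2.06 for Col16a1, 2.06 for Col5a2, 1.96 for Itgb5, 1.67 for Col1a2, 1.28 for Col9a3, 1.07 for Col4a1 and -1.26 for Lamb3. The call of Col5a2 ended when any of 3 mice was left out, namely control mouse 3 and mutant mouse 2 of the younger groups and mutant mouse 1 of the older (adjusted p up to 0.0608). Col9a3 lost it in 9 of 12 fits that left out 1 array (adjusted p up to 0.0944) and kept it without mutant mouse 3 at 9 weeks and without control or mutant mouse 3 at 13 weeks. Col4a1 lost it in 7 of 12.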

How the results depend on the processing

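The settings were run for the counts of members that passed and for 54 differences of single members, and none of these differences changed sign. The lists of related genes and markers, Rrn3 and members' differences outside these 54 were not rerun for this. At 13 weeks the count of 18 members lay between 17 and 18 when 1 array was left out, and was 8 with a filter at the 60th percentile, which leaves 9 members to test. That filter gave 5 members for the interaction (13 otherwise, 11 to 14 with 1 array left out) and 9 for age in mutants (16 otherwise, 16 to 17). At 9 weeks the count of 1 was 0 after quantile normalization, without a filter, with the mean of probe sets, with a trended and robust prior, with a term for sex, with the replicate block, with every probe set on its own, at an adjusted p under 0.01 and with a minimum difference of 1 log2. It was 2 in the fit to the compared groups alone (Col4a1 and Itgb3bp), 7 with array weights, 3 without both arrays that stand apart (Col6a1, Itgb1 and Lamb3), and 0 to 3 with 1 array left out. For age in controls the count of 0 was 5 with array weights, 1 without both arrays (Col6a1), and 0 to 1 with 1 array left out. The array weights did not reach convergence. Without both arrays 17 members passed at 13 weeks, 16 for the interaction and 17 for age in mutants. With the replicate block 17 members passed at 13 weeks, 12 for the interaction and 16 for age in mutants. The block ended the calls of Col6a1 at 9 weeks, Lamb1 at 13 weeks and the interaction of Col4a1. Mice with the same number share only that number. Itgax, Itgam, Itgb2, Itga6, Itgav, Itgb5, Col4a5, Col5a2, Col1a2, Col9a3, Col16a1, Col6a1, Lamb2 and Lamb3 passed at 13 weeks in each setting in which they were tested. For Itgax, Col4a5, Col5a2, Col1a2 and Lamb3, passing in the fits that kept the filter is no separate support. Each of them was tested because of its high values in the mutants or in the controls at 13 weeks. The filter was not applied again when an array was left out. Low signal also limits the sizes given for Itgax, Col4a5, Col5a2, Col1a2 and Lamb3.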

Other observations

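Lama3, a laminin alpha chain of epithelia, was above the percentile in 1 array and was not tested. Its values were 3.83, 3.23 and 2.06 in the mutants at 9 weeks and 3.07, 2.93 and 2.03 in the mutants at 13 weeks, while the 6 controls lay between 2.07 and 2.10. In both mutant groups mice 1 and 2 were above each control, and mouse 3 was at the bottom of the scale like the controls. The gene was chosen after its values were seen.

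Control mouse 3 at 13 weeks had the highest value of its group for Itga5, Itgb4, Lamc1 and the main Itgb1 probe set, and the lowest for Itgav and Col4a5. The 2 probe sets of Itgb1 described above, out of 6, put that mouse at opposite ends of its group, at 7.83 and 3.68.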
